A study of Mus musculus with 16 samples.

Results

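The genes described here are 10 regulators of drug and steroid responses in mouse liver, taken by name with all their probes: Nr1i3, Nr1i2, Rxra, Nr1h3, Hnf4a, Nr5a2, Esr1, Nr3c1, Ahr and Ncoa1. They had 17 probes among the 41174 probes of the array, whose named probes stood for 19096 genes, and 16 of the 17 probes were bright enough to be tested. The name nuclear receptors is exact for 8 of them. Ahr encodes the aryl hydrocarbon receptor, a ligand-activated factor of the bHLH-PAS family, and Ncoa1 encodes a coactivator of the p160 family, so neither is a nuclear receptor.

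RNA from 16 livers was hybridised to Agilent 1-colour arrays, 1 mouse to each array. All mice were male, all had received the liver carcinogen N-diethylnitrosamine (DEN) once at 90 mg/kg when 5 weeks old, and all were killed at 57 weeks, when tissue was taken from liver outside tumours. The WT DEN group (n = 4) were C57BL/6J mice given normal drinking water, and the WT DEN + PB group (n = 4) had phenobarbital (PB) in their water, 0.5 g/l, once they were 7 weeks old. The KO DEN (n = 4) and KO DEN + PB (n = 4) groups were treated in the same ways and carried a null allele of Gadd45b in every cell. The stock name of the null line, B6;129S6-Gadd45btm1Flv/J, holds a second strain beside C57BL/6, although the study places these mice on C57BL/6J, so genotype and any strain difference cannot be told apart. No group was free of DEN, and each array stands for a separate mouse, so p-values refer to the spread between mice. Both probes of Gadd45b gave a signal well above background in all 8 WT livers and in 0 of the 8 KO livers, as the labels have it.

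Nuclear receptors are transcription factors that bind small lipophilic molecules through one domain and DNA through another. Nr1i3 encodes CAR, the constitutive androstane receptor, which is held in the cytoplasm of the hepatocyte and moves to the nucleus when PB is given, where it pairs with RXRα, the product of Rxra, and switches on genes of drug metabolism such as Cyp2b10. This step acts on the receptor protein, so a response of its targets needs no change of the receptor's own mRNA. The comparison made here asked whether the mRNA of the receptors moved while the targets of CAR responded.

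Promoters of the pair of xenobiotic receptors, Nr1i3 and Nr1i2, and of the other nuclear receptors whose brightest probe differed by genotype, Esr1 and Nr5a2, are shown to place these genes in the genome. Each runs 5′ to 3′ over 250 bases before and 50 after a transcription start of RefSeq on GRCm38.p6. Capitals mark the receptor half-sites AGGTCA and GGGTCA on either strand. For Esr1 and Nr5a2, which have 2 listed starts each, the outer one is shown.

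Nr1i3, chr1:171213720-171214019, plus strand: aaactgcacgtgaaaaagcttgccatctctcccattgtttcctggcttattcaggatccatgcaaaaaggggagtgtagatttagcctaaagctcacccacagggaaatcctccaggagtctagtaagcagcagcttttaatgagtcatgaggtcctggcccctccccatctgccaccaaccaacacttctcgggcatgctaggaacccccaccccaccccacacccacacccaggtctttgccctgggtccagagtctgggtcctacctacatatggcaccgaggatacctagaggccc

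Nr1i2, chr16:38294775-38295074, minus strand: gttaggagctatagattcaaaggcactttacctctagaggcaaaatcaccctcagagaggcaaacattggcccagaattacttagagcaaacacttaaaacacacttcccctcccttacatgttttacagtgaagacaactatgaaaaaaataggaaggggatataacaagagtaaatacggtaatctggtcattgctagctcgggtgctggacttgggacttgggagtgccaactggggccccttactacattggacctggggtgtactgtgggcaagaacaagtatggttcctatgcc

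Esr1, chr10:4611739-4612038, plus strand: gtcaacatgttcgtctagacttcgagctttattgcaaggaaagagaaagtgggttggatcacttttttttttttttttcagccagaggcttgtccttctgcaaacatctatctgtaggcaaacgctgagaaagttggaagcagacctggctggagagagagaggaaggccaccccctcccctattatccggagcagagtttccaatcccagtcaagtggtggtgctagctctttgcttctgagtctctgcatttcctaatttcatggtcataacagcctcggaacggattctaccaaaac

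Nr5a2, chr1:136960399-136960698, minus strand: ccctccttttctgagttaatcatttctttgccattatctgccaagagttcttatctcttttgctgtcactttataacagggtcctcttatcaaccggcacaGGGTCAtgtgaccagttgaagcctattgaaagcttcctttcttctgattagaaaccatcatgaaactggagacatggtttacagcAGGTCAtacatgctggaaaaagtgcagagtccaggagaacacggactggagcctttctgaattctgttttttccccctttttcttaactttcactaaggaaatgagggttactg

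The promoter of Nr5a2 held 1 AGGTCA and 1 GGGTCA, and those of Nr1i3, Nr1i2 and Esr1 held neither in this window. AGGTCA occurred in 16.3% and GGGTCA in 13.7% of all 32851 listed promoters of 300 bases, both strands counted. Counts are given for RefSeq promoters of 8 of the 10 genes with 13 starts in all. Those of Ahr and Nr3c1 are not reported here, which does not mean that none is listed. Among the starts covered, beside Nr5a2 the inner start of Rxra held the half-sites, AGGTCA 2 times and GGGTCA 1 time. The letters GCGTG, the core bound by the aryl hydrocarbon receptor, occurred in 32.4% of all promoters, 2 times in that of Ncoa1 and 1 time each at the inner starts of Esr1 and Nr5a2. These are matches of letters, and binding was not measured.

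Signals are given as log2 of the processed signal relative to the 75th percentile of the same array, so a value of 0 is the brightness of a probe at that percentile and a difference of 1 is a doubling. Each gene is represented by the brightest of its probes unless another probe is named, and levels are compared between groups and never between genes. A probe is said to have passed the test when its p from limma, adjusted by the Benjamini-Hochberg method over all 24455 tested probes, was under 0.05. The array percentiles lay between 137 and 294 units of signal, and 58.3% to 67.7% of the spots of an array were well above background. The markers of hepatocytes were bright in all groups, with 11 of 11 tested markers above background on every array. As RNA came from whole tissue, fewer cells of a type and less RNA per cell cannot be told apart.

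With PB the targets of CAR rose, while Ahr was the only one of the 10 genes to pass the test. Averaged over the genotypes, 8 mice with PB against 8 without, 1 of the 16 tested probes passed the test, that of Ahr, which was 1.72-fold higher, against 2.14% of all tested probes. In the same comparison 23 of 30 tested CAR target genes rose and 0 fell. The median log2 change of these targets was 0.97, that of the 10 genes was -0.09 and that of all tested probes -0.01. The target list was chosen with earlier results of these data known, so its count is a description. For 7 of the 10 genes the 95% interval of the averaged change lay within 1.5-fold, and the others were Ahr, Esr1 and Nr3c1. The targets with the largest changes were Cyp2b10, the classical PB-inducible P450, at 6.75 ± 0.44 (SE), a 107-fold rise, Cyp2b13 at 6.48 ± 0.37, Cyp2b9 at 5.57 ± 0.30 and Cyp2c65 at 4.59 ± 0.34, and whether probes of these close paralogues also bind one another's mRNA was not tested. Among the other targets that rose were Por, the electron donor of the P450 enzymes (0.99 ± 0.13), Cyp3a11 (0.75 ± 0.14) and the efflux pump Abcc4 (3.00 ± 0.18). Gstm1, Cyp3a13, Aldh1a7, Gstm3, Slco1a4, Ugt1a1 and Ugt1a9 did not pass in this average. Of these, Slco1a4 passed in KO (1.19 ± 0.25; limma, adjusted p = 0.0209) and not in WT (0.10 ± 0.25). Ugt1a9 passed in neither genotype, at 2.55 ± 0.68 in WT and -0.27 ± 0.68 in KO.

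**Figure D1:**
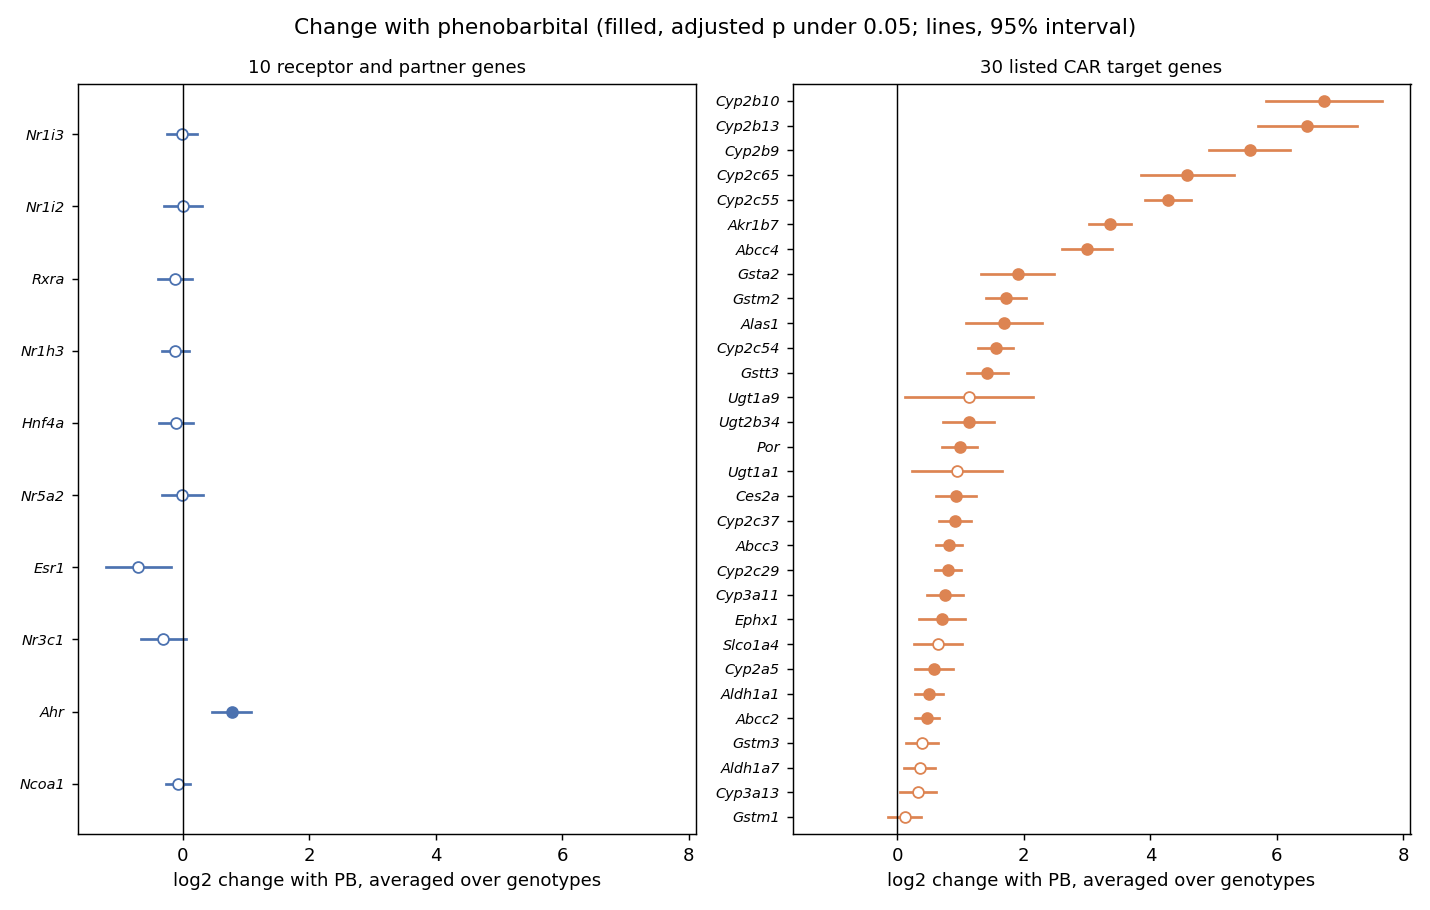
Log2 change with PB averaged over the genotypes (horizontal axis, the same in both panels) for the 10 genes on the left and for the 30 tested CAR target genes on the right. Points are the estimates from limma over 16 arrays, lines their 95% intervals, and filled points passed the test. Ahr at 0.78 is the filled point on the left, while the targets reach 6.75.

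Within each genotype the picture was alike. In WT, 0 of the 16 probes passed the test for PB by limma, against 0.667% of all tested probes. An unadjusted p under 0.05 was reached by 1 of the 16, against 1782 of all 24455. In KO, 0 of 16 passed, against 1.73% of all, and 2 had an unadjusted p under 0.05, against 2958 of all 24455. The CAR targets that rose numbered 14 of 30 in WT and 20 of 30 in KO, with median changes of 0.85 and 1.12, and 0 fell in either. The difference between the PB effects of WT and KO, the interaction, was tested directly. For it 0 of 16 probes of the 10 genes and 0 of 30 CAR targets passed, against 0.00818% of all tested probes. An unadjusted p under 0.05 was reached by 1 of the 16 probes and 5 of the 30 targets, against 1474 of all 24455. These comparisons share arrays with the averaged one.

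Nr1i3, the gene of CAR itself, read 3.15, 2.69, 2.85 and 2.90 in the 4 WT DEN livers and 2.74, 2.57, 2.72 and 2.55 in the WT DEN + PB livers. It read 2.47, 2.78, 2.98 and 2.84 in KO DEN and 2.88, 2.75, 3.11 and 3.29 in KO DEN + PB. The PB groups overlapped the water groups in both genotypes, with the lower means on PB in WT and on water in KO. The log2 change with PB was -0.26 ± 0.16 (SE) in WT (limma, adjusted p = 0.83) and 0.24 ± 0.16 in KO (limma, adjusted p = 0.622). The 95% interval was -0.59 to 0.07 in WT and -0.09 to 0.57 in KO. Averaged, the change was -0.01 with a 95% interval from -0.24 to 0.23, so an averaged change beyond 1.18-fold in either direction lay outside the interval. That average joins changes of opposite sign and does not bound the change within a genotype. The opposite signs gave an interaction of -0.50 ± 0.22, WT minus KO, with an unadjusted p of 0.0385 and an adjusted p of 0.793 from limma, which did not pass. Within the 3 slides that held both WT groups, Nr1i3 was lower on PB by 0.12 to 0.59, and within the 3 slides that held both KO groups it was higher by 0.20 to 0.52.

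Ordered by mean, the groups for Nr1i3 ran from KO DEN + PB (3.01) through WT DEN (2.90) and KO DEN (2.77) to WT DEN + PB (2.64), and neighbours in this order overlapped. The ends did not: the 4 KO DEN + PB livers all lay above the 4 WT DEN + PB livers, a difference of 0.37 ± 0.16 with an exact two-sided permutation p of 0.0286, the smallest that 4 against 4 allows, and an adjusted p of 0.173 from limma. Averaged over treatments the KO minus WT difference was 0.12 ± 0.11 (limma, adjusted p = 0.496). The genes whose values over the 16 arrays followed Nr1i3 most closely were Gstz1 (Pearson r = 0.79), Dcxr (0.76) and Hs1bp3 (0.75), a description over arrays that share scaling and groups.

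Nr1i2 encodes PXR, the pregnane X receptor, which binds many drugs and shares target genes with CAR. It did not pass the test for PB, with an averaged change of 0.01 ± 0.14 (95% interval -0.29 to 0.31). It differed by genotype: WT DEN livers read 3.66, 2.95, 3.14 and 3.14, WT DEN + PB livers 2.95, 3.09, 3.24 and 3.63, KO DEN livers 3.69, 3.72, 3.54 and 3.89 and KO DEN + PB livers 3.41, 3.46, 3.93 and 4.09. In each genotype the treatments overlapped, and 1 WT liver of each treatment reached into the KO range. The difference was 0.49 under DEN and 0.50 under DEN + PB, and averaged 0.49 ± 0.14 or 1.41-fold (limma, adjusted p = 0.0242; two-sided exact permutation within treatments, p = 0.00449). Without KO DEN + PB replicate 4 the difference was 0.43 and the adjusted p 0.0509 (limma). The call was also lost with slide as a block (0.45; limma, adjusted p = 0.0701), with the normexp background correction, without scaling and without the filter on dim probes. Aph1a (r = 0.91), Rab5c (0.85) and Capn10 (0.83) followed Nr1i2 most closely over the 16 arrays.

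**Figure D2:**
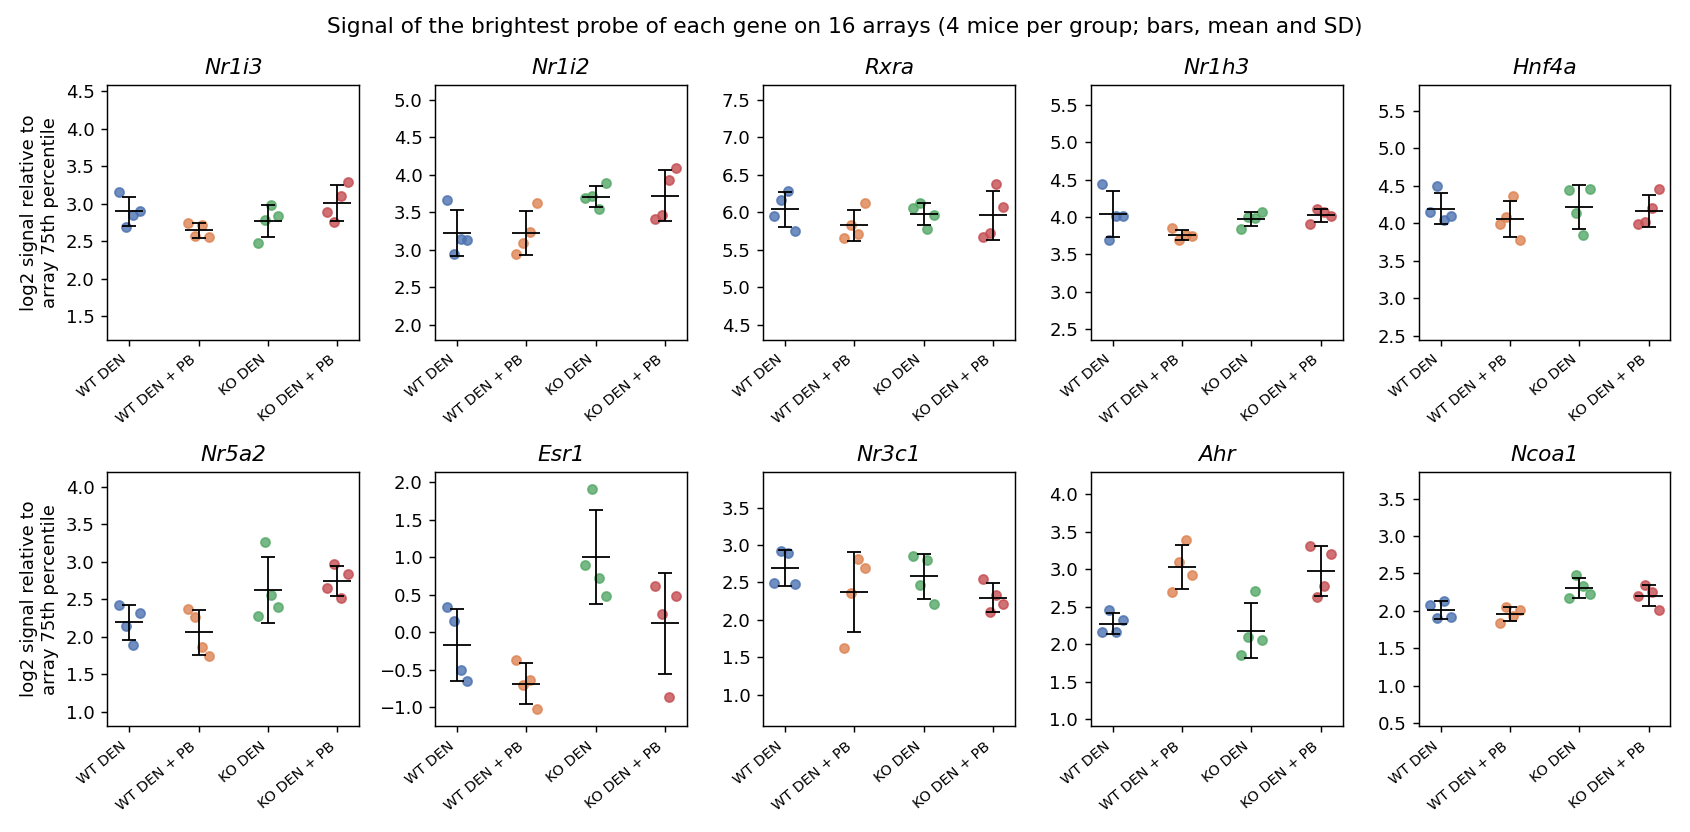
Log2 processed signal over the 75th percentile of its array (vertical axis, each panel spanning the same number of log2 units) of the brightest probe of each of the 10 genes, by group. Points are single mice, the long dash is the mean and the bars are the SD (n = 4 per group). The PB groups stand above the water groups for Ahr, and KO above WT for Nr1i2, Nr5a2 and Esr1, with overlap in places.

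Rxra and Nr1h3 are the partner receptor and LXRα, the oxysterol receptor that partners it in lipid metabolism. For Rxra the averaged PB change was -0.12 ± 0.13 and the averaged KO minus WT difference 0.04 ± 0.13, and neither passed. Group means of Rxra lay between 5.83 in WT DEN + PB and 6.04 in WT DEN. For Nr1h3 the corresponding values were -0.11 ± 0.10 and 0.10 ± 0.10, and neither passed. In WT the PB change of Nr1h3 was -0.28 ± 0.15 (limma, adjusted p = 0.76), with means of 4.04 without and 3.76 with PB. The 4 KO DEN + PB livers, 3.91 to 4.10, all lay above the 4 WT DEN + PB livers, 3.70 to 3.86, with a difference of 0.26 ± 0.15 (exact permutation p = 0.0286; limma, adjusted p = 0.307).

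Of 12 LXR target genes tested, 1 rose and 1 fell with PB averaged over genotypes, against 2.14% of all tested probes in both directions. Lpl, lipoprotein lipase, rose by 0.95 ± 0.17, and Srebf1, the regulator of fatty acid synthesis, fell by 0.66 on the log2 scale (SE 0.15). Of the 12 genes 0 passed with normexp or without scaling, and 1 without the filter, with slide as a block or without WT DEN replicate 1, WT DEN replicate 2 or WT DEN + PB replicate 1. In KO against WT averaged over treatments 4 of 12 fell and 0 rose, against 17.3% of all tested probes in both directions: Pltp by 0.86, Mylip by 0.83, Lpl by 0.82 and Abcg1 by 0.61 on the log2 scale.

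Hnf4a encodes a receptor that keeps up the hepatocyte programme, and Nr5a2 encodes LRH-1, a regulator of bile acid and cholesterol genes. The brightest probe of Hnf4a changed by -0.10 ± 0.13 with PB and by 0.07 ± 0.13 with genotype, and neither passed. Nr5a2 did not pass for PB, with an averaged change of -0.00 ± 0.15 (95% interval -0.32 to 0.32), and was higher in KO. It read 2.42, 2.15, 1.89 and 2.32 in WT DEN, 2.37, 2.27, 1.87 and 1.75 in WT DEN + PB, 2.27, 3.26, 2.56 and 2.40 in KO DEN and 2.65, 2.97, 2.52 and 2.84 in KO DEN + PB. All 4 KO DEN + PB livers lay above all 4 WT DEN + PB livers, while the DEN groups overlapped.

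The KO minus WT difference of Nr5a2 was 0.43 ± 0.21 under DEN (limma, adjusted p = 0.272) and 0.69 ± 0.21 under DEN + PB (limma, adjusted p = 0.0649; exact permutation p = 0.0286). Averaged it was 0.56 ± 0.15 or 1.47-fold (limma, adjusted p = 0.0192; two-sided exact permutation within treatments, p = 0.00204). KO was above WT in each of the 6 comparisons that could be made within a slide, by 0.38 to 0.90. Groups were not balanced over slides. WT DEN replicates 2 and 4 lay on slide 2, without a KO DEN array, and KO DEN replicates 3 and 4 on slide 4, without a WT DEN array. Under DEN the genotypes could thus be compared within slides 1 and 3 only. Without KO DEN replicate 2, the high one and also the highest for Esr1, the difference under DEN was 0.22 (limma, adjusted p = 0.585), and that under DEN + PB, 0.69, passed (limma, adjusted p = 0.024). Cep85l (r = 0.94), Zbtb43 (0.93) and Trp53bp2 (0.92) followed Nr5a2 most closely. Of 8 LRH-1 target genes 0 passed for PB by limma, with 1 at an unadjusted p under 0.05, and 1 was higher in KO averaged over treatments, Scarb1, the HDL receptor (0.48 ± 0.11). Of 12 HNF4A target genes 0 passed for PB by limma, with 1 at an unadjusted p under 0.05, and 1 was higher in KO, the coagulation factor gene F7 (0.69 ± 0.17). Over all tested probes 17.3% passed for genotype, and 3208 of 24455 had an unadjusted p under 0.05 for PB averaged over genotypes. For genotype 0 of the 8 LRH-1 targets passed with normexp and 0 of either list without scaling. For PB 1 HNF4A target passed without WT DEN replicate 4.

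Hnf4a was the gene whose probes differed in the call. Its probe A_52_P69656 read -2.36, -2.09, -2.64 and -1.63 in WT DEN, -1.46, -1.46, -2.60 and -1.90 in WT DEN + PB, -1.14, -0.99, -1.13 and -0.78 in KO DEN and -1.61, -0.95, -1.31 and -1.23 in KO DEN + PB. All KO DEN livers lay above all WT DEN livers, and the DEN + PB groups overlapped. The KO minus WT difference was 1.17 ± 0.25 under DEN (limma, adjusted p = 0.0211), 0.58 ± 0.25 under DEN + PB (limma, adjusted p = 0.184) and 0.87 ± 0.18 averaged (limma, adjusted p = 0.00388). The call under DEN was lost when WT DEN replicate 1 or 3 or KO DEN replicate 2 or 4 was left out, with changes of 1.02 to 1.17 and adjusted p from limma of 0.0598 to 0.0747. With the normexp background correction the averaged difference was 0.30 and did not pass.

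Over the 16 arrays A_52_P69656 followed the brightest Hnf4a probe with r = 0.04 and the remaining Hnf4a probe with r = 0.60. The 2 probes of Rxra ran against each other (r = -0.64). Among the 4 probes of Nr3c1 the brightest followed the others with r between -0.06 and 0.19, while the others followed one another with r between 0.74 and 0.88. Which transcripts each probe reads is not given in the sources used here, and no single probe can be taken for all the mRNA of Rxra, Hnf4a or Nr3c1. On the dimmest array, KO DEN + PB replicate 3 (75th percentile 137 units), the 3 dimmer Nr3c1 probes read -2.684, -1.863 and -0.885. They read -1.466, -1.395 and -0.027 on the brightest, WT DEN + PB replicate 3 (294 units). The brightest Rxra probe read 6.375 and 5.714 on these arrays. The part of array brightness in the probe differences was not tested.

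**Figure D3:**
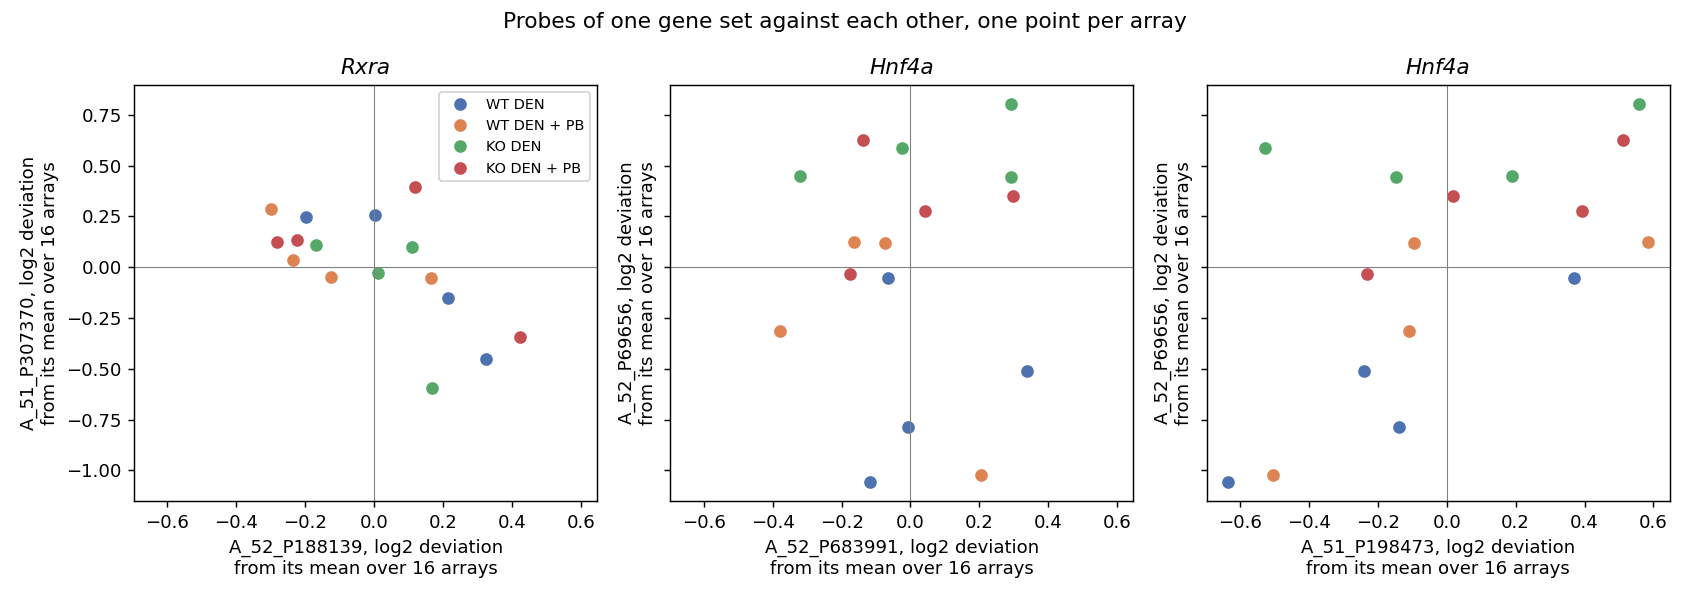
Each panel sets 2 probes of one gene against each other over the 16 arrays, as log2 deviation of each probe from its own mean (both axes), with colours for the groups. The points fall from left to right for Rxra (r = -0.64), show no slope for the brightest Hnf4a probe (r = 0.04) and rise for the other Hnf4a pair (r = 0.60).

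Of the steroid receptors, Esr1 encodes oestrogen receptor α and Nr3c1 the glucocorticoid receptor. Esr1 was higher in KO and read lower with PB, and only the first passed the test. It read 0.34, 0.15, -0.51 and -0.65 in WT DEN, -0.37, -0.71, -0.63 and -1.03 in WT DEN + PB, 0.89, 1.91, 0.72 and 0.48 in KO DEN and 0.62, 0.25, -0.86 and 0.49 in KO DEN + PB. All 4 KO DEN livers lay above all WT livers of either treatment, and 1 KO DEN + PB liver lay within the WT DEN + PB range. The mean fell in the order KO DEN (1.00), KO DEN + PB (0.12), WT DEN (-0.17) and WT DEN + PB (-0.68), and neighbours in this order overlapped.

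The KO minus WT difference of Esr1 was 1.17 ± 0.34 under DEN (limma, adjusted p = 0.0723; exact permutation p = 0.0286) and 0.81 ± 0.34 under DEN + PB (limma, adjusted p = 0.173). Averaged it was 0.99 ± 0.24 or 1.98-fold (limma, adjusted p = 0.0117; two-sided exact permutation within treatments, p = 0.00367), the largest among the 10 genes. Without KO DEN + PB replicate 3, the low one, the differences were 1.17 under DEN and 1.13 under DEN + PB, with adjusted p of 0.0403 and 0.0459 from limma. The PB change was -0.52 ± 0.34 in WT, -0.88 ± 0.34 in KO and -0.70 ± 0.24 averaged, with adjusted p from limma of 0.859, 0.273 and 0.187, and the interaction was 0.36 ± 0.49. Esr1 had the widest spread within groups of the 10 genes (pooled SD 0.54), which left a 95% interval of -1.21 to -0.18 for the averaged PB change. For that change the unadjusted p from limma was 0.0108, and the two-sided exact permutation within genotypes gave p = 0.0118. The second Esr1 probe was above background on 2 of 16 arrays and was not tested. Cpsf2 (r = 0.93) and Hsd17b7 (0.92) were among the genes that followed Esr1 most closely, and among the 10 genes themselves the pair Esr1 and Nr5a2 had the highest correlation over the 16 arrays (r = 0.72, and 0.67 after the group means were taken out).

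For Nr3c1 the averaged PB change was -0.30 ± 0.17 (95% interval -0.65 to 0.05; limma, adjusted p = 0.484) and the averaged genotype difference -0.09 ± 0.17, and the other 3 probes did not pass either. Nr3c1 was lower with PB in each of the 6 comparisons within a slide, with changes from -1.27 to -0.0038. Of 12 glucocorticoid receptor target genes 0 passed for PB averaged over genotypes by limma, and 1 passed without KO DEN + PB replicate 1 or 4. An unadjusted p under 0.05 was reached by 2 of the 12, against 3208 of all 24455 tested probes. In KO against WT averaged over treatments 4 were higher, among them Tsc22d3 (1.04 ± 0.18), Sds (0.84 ± 0.20) and G6pc (0.58 ± 0.19), and 1 lower, the kinase gene Sgk1, which fell by 0.74 on the log2 scale. The other was Tat, at 0.45 ± 0.13. These 5 of 12 stand against 17.3% of all tested probes, and 3 passed without WT DEN replicate 2, WT DEN + PB replicate 3 or KO DEN + PB replicate 4.

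Ahr was the gene that rose with PB. It read 2.16, 2.45, 2.16 and 2.32 in WT DEN and 2.70, 3.1, 3.40 and 2.93 in WT DEN + PB, so that every WT liver with PB lay above every WT liver without. It read 1.85, 2.10, 2.71 and 2.06 in KO DEN and 3.31, 2.63, 2.77 and 3.20 in KO DEN + PB, where KO DEN replicate 3 reached into the PB range. The change was 0.76 ± 0.21 in WT (limma, adjusted p = 0.164; exact permutation p = 0.0286) and 0.80 ± 0.21 in KO (limma, adjusted p = 0.0645; exact permutation p = 0.0571). Averaged it was 0.78 ± 0.15 with a 95% interval of 0.47 to 1.09 (limma, adjusted p = 0.00699; two-sided exact permutation within genotypes, p = 0.000816).

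The averaged change of Ahr passed the test with each of the 16 arrays left out in turn, at 0.72 to 0.87 and adjusted p from limma of 0.00193 to 0.0191. It was positive in each of the 6 comparisons within a slide, at 0.39 to 1.11. With the normexp background correction it was 0.69 with an adjusted p of 0.288 from limma. The PB effects of the genotypes differed by -0.04 ± 0.29 (95% interval -0.66 to 0.58), and KO minus WT averaged -0.07 ± 0.15. In KO alone, the call was gained when KO DEN replicate 3 was left out (0.98; limma, adjusted p = 0.0204). Over the 16 arrays Slc16a12 (r = 0.90), Tafa2 (0.89) and Abcc2, a transporter on the list of CAR targets (0.89), followed Ahr most closely.

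Of 6 tested target genes of the aryl hydrocarbon receptor, 3 rose with PB averaged over genotypes and 0 fell, against 2.14% of all tested probes in both directions. Nqo1, a quinone reductase that is also a target of NRF2, rose by 1.13 ± 0.16. Cyp1a2, the main constitutive member of its P450 family in liver, rose by 0.92 ± 0.17 and Cyp1a1 by 0.85 ± 0.18. Whether these rises came through the aryl hydrocarbon receptor, CAR or NRF2 was not tested. The other 3 did not pass: Tiparp, a feedback inhibitor, was at 0.15 ± 0.13 and Cyp1b1 at -0.00 ± 0.16, while Ahrr, the repressor of the receptor, was not well above background on any of the 8 KO arrays and has no averaged PB change. In KO against WT averaged over treatments 2 of the 6 passed, both lower in KO, against 17.3% of all tested probes. Cyp1b1 fell by 0.72 on the log2 scale. The Ahrr signal, well above background on 7 of the 8 WT arrays, was 1.42-fold higher in WT when the KO signal was held to a floor. That comparison is against the higher of the KO signal and the lowest signal of any probe well above background on the same array. The WT mean holds the 1 array where Ahrr was not well above background, so the ratio is not a strict lower bound. The adjusted p of 0.0138 from limma belongs to the measured signals and does not test this ratio. Ahrr entered the test only through WT DEN + PB, the 1 group with all 4 arrays well above background. Its genotype call is therefore not independent of the filter. With either normexp setting 0 of the 6 passed, and 1 with slide as a block.

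Ncoa1, the coactivator SRC-1, had the narrowest spread within groups (pooled SD 0.12) and an averaged PB change of -0.08 ± 0.09 (95% interval -0.27 to 0.11). It read 2.08, 1.91, 2.14 and 1.92 in WT DEN, 1.84, 2.05, 1.93 and 2.01 in WT DEN + PB, 2.18, 2.47, 2.34 and 2.23 in KO DEN and 2.20, 2.35, 2.25 and 2.02 in KO DEN + PB. Every KO DEN liver lay above every WT DEN liver. The KO minus WT difference was 0.29 ± 0.13 under DEN (exact permutation p = 0.0286; limma, adjusted p = 0.207), 0.24 ± 0.13 under DEN + PB and 0.27 ± 0.09 averaged, with an adjusted p of 0.0504 from limma and a two-sided exact permutation p within treatments of 0.000816. Without WT DEN replicate 3 or KO DEN + PB replicate 4 it passed, at 0.29 and 0.30 and adjusted p of 0.0495 and 0.0435 from limma.

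Across KO against WT averaged over treatments, 4 of the 16 probes were higher and 0 lower, those of Nr1i2, Nr5a2 and Esr1 and the Hnf4a probe A_52_P69656, against 17.3% of all tested probes. Under DEN alone 1 of 16 passed, the Hnf4a probe, against 3.12% of all. Under DEN + PB 0 of 16 passed by limma, against 7.1% of all. An unadjusted p under 0.05 was reached by 5 of the 16, against 5622 of all 24455 tested probes. With so many probes of the array past the test, these counts do not set the 10 genes apart. The median averaged difference of the 10 genes was 0.11 and that of all tested probes 0.03.

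**Figure D4:**
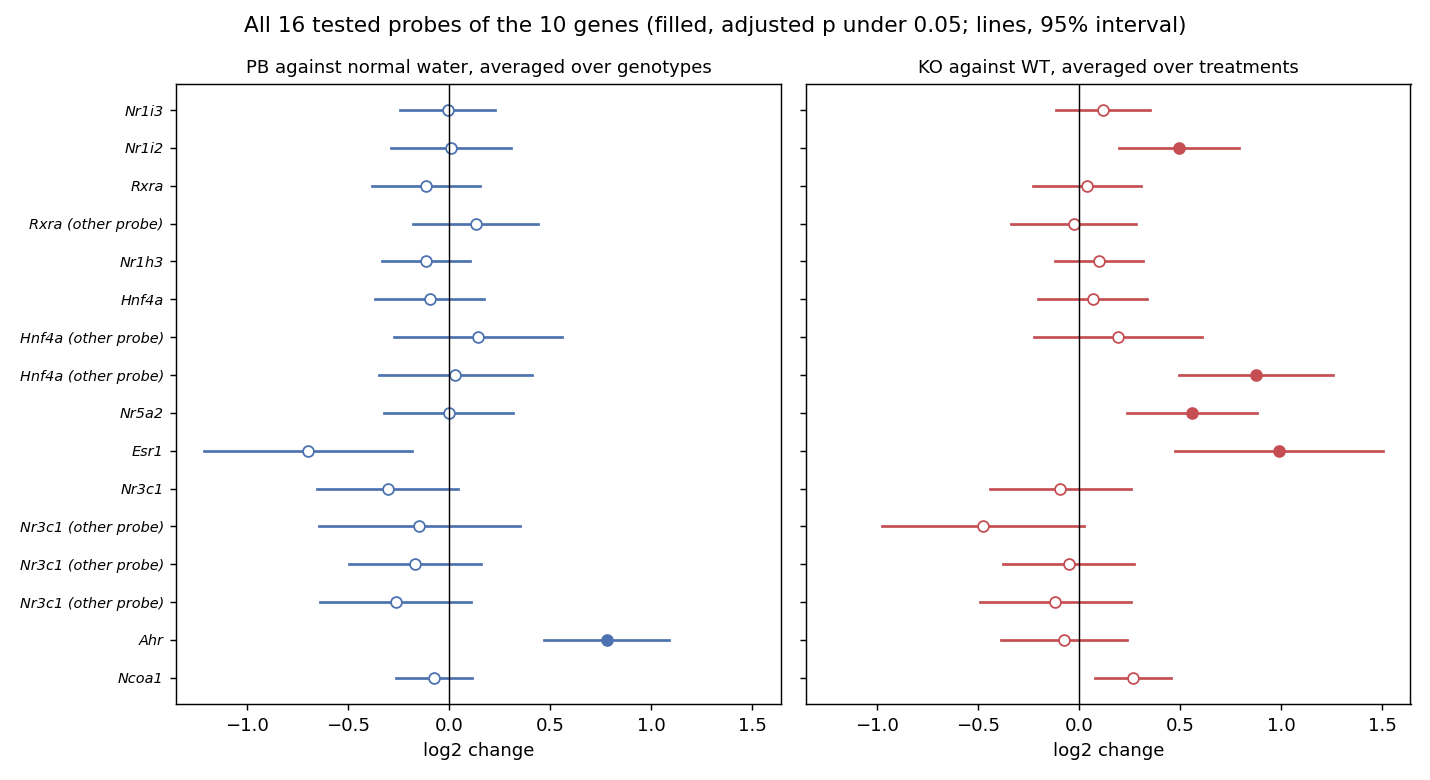
Log2 change with PB (left) and between KO and WT (right) for all 16 tested probes of the 10 genes, each averaged over the other factor. Points are limma estimates, lines 95% intervals, and filled points passed the test. On the left Ahr is filled (0.78), and on the right Nr1i2 (0.49), one Hnf4a probe (0.87), Nr5a2 (0.56) and Esr1 (0.99).

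Among the partners and coregulators of these receptors, 0 of 26 tested genes passed for PB averaged over genotypes by limma. An unadjusted p under 0.05 was reached by 2 of them, against 3208 of all 24455 tested probes. In KO against WT averaged over treatments 5 were higher and 2 lower, against 17.3% of all tested probes, and with slide as a block 2 passed in all. With 1 array left out 3 to 7 passed, with 3 or 4 without WT DEN replicate 3, WT DEN + PB replicate 2, 3 or 4, KO DEN replicate 2 or KO DEN + PB replicate 2 or 4. Among the higher were Foxa3, a liver pioneer factor (0.75 ± 0.24), Ppargc1a, a coactivator of energy metabolism (0.55 ± 0.16), the corepressor Ncor1 (0.52 ± 0.14) and the acetyltransferase Crebbp (0.44 ± 0.11). Lower were Ahrr and the coactivator Ncoa3, which fell by 0.35 on the log2 scale. Ahrr was not well above background in KO and was tested only through WT DEN + PB. Of 16 tested genes for the retention and activation of CAR, chaperones, phosphatases and kinases, 0 passed in any of the 7 comparisons by limma. An unadjusted p under 0.05 was reached by 0 to 3 of them, against 1474 to 7984 of all 24455 tested probes. Between KO and WT averaged over treatments 2 CAR target genes of 30 passed, both higher, Akr1b7 (1.23 ± 0.16) and Slco1a4 (0.64 ± 0.18), a smaller share than the 17.3% of all tested probes. With normexp 0 of the 30 passed, and 1 without scaling, without the filter or with slide as a block.

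Markers of other liver cells also differed by genotype. Averaged over treatments 7 of 9 tested markers of Kupffer cells and leukocytes were lower in KO, against 17.3% of all tested probes in both directions, among them Vsig4 by 2.02, Adgre1 by 1.95 and Cd68 by 1.56 on the log2 scale, with the log2 of their summed signal at 5.85 to 7.80 in WT DEN, 6.20 to 6.41 in WT DEN + PB, 5.29 to 5.79 in KO DEN and 4.87 to 5.94 in KO DEN + PB. Of the endothelial markers 6 of 8 were lower, with summed signals of 5.35 to 5.77 in the WT groups and 4.41 to 5.19 in the KO groups. Of the hepatocyte markers 1 of 11 passed, Tat, with summed signals of 11.09 to 11.61 in WT and 11.38 to 11.70 in KO. That call was lost with normexp, quantile scaling, no scaling, no filter or slide as a block, and without WT DEN replicate 2, WT DEN + PB replicate 3 or 4, KO DEN replicate 3 or KO DEN + PB replicate 4. Of the stellate cell markers 3 of 8 were lower in KO, and of the cholangiocyte markers 1 of 5. With PB averaged over genotypes 0 of the 9 Kupffer cell and leukocyte, 8 endothelial, 8 stellate, 5 cholangiocyte and 11 hepatocyte markers passed by limma. In the same order 1, 4, 2, 3 and 2 of them had an unadjusted p under 0.05, against 3208 of all 24455 tested probes.

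Within treatments and genotypes the cholangiocyte markers varied more. In WT 2 of 5 rose with PB, the keratin genes Krt19 (1.27 ± 0.19; limma, adjusted p = 0.00208) and Krt7 (1.16 ± 0.23; limma, adjusted p = 0.022), against 0.667% of all tested probes. Both were dim, with means of -2.94 and -2.03 in WT DEN. The other markers did not pass: Spp1 (0.76 ± 0.36) and Epcam (0.64 ± 0.29) read higher and Sox9 lower (-0.40 ± 0.26). In KO the changes of Krt19 and Krt7 were -0.22 ± 0.19 and -0.13 ± 0.23. The interaction passed for 0 of 5 by limma, with 3 at an unadjusted p under 0.05, against 1474 of all 24455 tested probes. Under DEN + PB 3 of 5 cholangiocyte and 3 of 8 stellate cell markers were lower in KO, against 7.1% of all tested probes. The log2 of the summed cholangiocyte signal was 3.57 to 4.99 in WT DEN, 4.14 to 5.15 in WT DEN + PB, 3.61 to 5.19 in KO DEN and 3.58 to 3.95 in KO DEN + PB. The count of 2 in WT was 0 with either normexp setting, and 1 without scaling, without the filter, with slide as a block, without moderation, with the WT arrays alone and without WT DEN replicate 1 or 2 or WT DEN + PB replicate 2, 3 or 4. The part of these markers in the genotype differences of Nr1i2, Nr5a2 and Esr1 was not tested.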

How the data were processed

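Liver RNA of 16 mice was hybridised to 1-colour Agilent arrays, which were read out with Feature Extraction 12.0.3.1 per the file headers. The processed signal the authors deposited is a background-corrected intensity on a linear scale, with no scaling between arrays. The intensity table of the series holds the same values (99.5% of probes within 0.001%). Spots marked as outliers were left out (71 to 122 per array), spots of a probe were averaged, and log2 signal minus the array's 75th percentile was used. Probes were kept if 1 group or more had them well above background on all its arrays (24455 of 41174). They were tested with limma 3.58.1 in R 4.3.3 (lmFit, eBayes, 4 group means, 16 arrays, Benjamini-Hochberg) over 7 comparisons. A check on simulated data covered the PB effect in WT, in KO and averaged, and not the interaction or the genotype comparisons. RefSeq accessions were named through a gene table of GRCm38.p6 (28223 probes). The number of arrays limits the precision. The study's thresholds are 1.5-fold and an adjusted p of 0.05, and its normalization is not given in the sources used here.

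All probes of the 10 genes are given, with the brightest by mean as the value of a gene. List genes are named by largest change among those past the test, and 3 genes of highest Pearson r are named for Nr1i3 and each gene past the test, except that some items are not reported here. These genes and the target, partner and marker lists were chosen with earlier results of these data known. Alternatives were normexp background correction (offset 50, on the median signal, as the files hold no mean signal), quantile scaling, no scaling, no filter, slide or replicate number as a block, fewer arrays, the mean over probes, no moderation and each array left out. The permutations within genotype or treatment and the differences within the 4 slides were chosen after seeing the data.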

Additional observations from a re-analysis of the deposited data

How the results depend on the processing

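With 4 mice per group, the 95% interval of the averaged PB change lay within 2-fold for 8 of the 10 genes. Without scaling between arrays the median of all tested probes moved by 0.40 for the interaction, -0.34 for KO against WT under DEN + PB and -0.30 for PB in KO.

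The number of probes of the 10 genes past the test was 1 for PB averaged over genotypes, and 0 with normexp or without scaling. It was 4 for KO against WT averaged over treatments, 1 with normexp and 0 without scaling. Under DEN it was 1, and 0 with normexp, without scaling, without a filter, with slide as a block and without moderation, and 2 with the replicate number as a block. Leaving out 1 array gave 1 in each case for PB averaged, 0 to 1 for PB in KO, 0 for PB in WT and for the interaction, 0 to 2 under DEN, 0 to 1 under DEN + PB and 4 to 5 for KO against WT averaged. CAR targets past the test numbered 6 with normexp, 9 without scaling and 9 with slide as a block in WT, 10 with normexp and 10 without scaling in KO, and 12 with normexp averaged. Normexp also lowered the calls over all tested probes, from 524 to 92 for PB averaged and from 4230 to 502 for genotype averaged, where no scaling gave 219 and 1556. It lowered the genotype calls among partners and coregulators from 7 to 0, LXR targets from 4 to 0, glucocorticoid receptor targets from 5 to 2, Kupffer cell and leukocyte markers from 7 to 3 and endothelial markers from 6 to 3, and the PB calls among Ahr targets from 3 to 1. Partners and coregulators numbered 3 without a filter. Under the alternatives other than leaving out an array, 294 counts stayed within 1.5 times of the value given and 96 did not. With 1 array left out CAR targets numbered 10 to 14 in WT, 15 to 21 in KO, 21 to 23 averaged and 0 for the interaction.

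Replicate numbers are shared between groups, but same-numbered arrays did not deviate together (median r = 0.01 over 24 pairs, 6 of them above 0.1), and 4 of 16 arrays correlated best with their own number. With the replicate block Esr1 also passed under DEN (1.17, adjusted p = 0.0379), and it changed no other call among the changes of single genes.

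Calls of single genes were lost as follows, with the log2 change under the setting. The averaged PB change of Ahr was lost with normexp (0.69) and without scaling (0.68). The averaged KO minus WT difference was lost for Nr1i2 with normexp (0.69), without scaling (0.35), without a filter (0.49) and with slide as a block (0.45), for Esr1 with normexp (0.77) and without scaling (0.85), for Nr5a2 without scaling (0.42) and for the Hnf4a probe A_52_P69656 with normexp (0.30) and without scaling (0.74). Under DEN the Hnf4a probe did not pass with normexp (0.36), normexp without outlying backgrounds (0.60), without scaling (1.23), without a filter (1.17), with slide as a block (1.33) or without moderation (1.17). Ncoa1 passed in the averaged difference with quantile scaling (0.27, adjusted p = 0.03) and without moderation (0.27, adjusted p = 0.0144), and Esr1 passed under DEN with normexp without outlying backgrounds (0.98). The cause of these shifts was not tested.

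Direction changed only for values that did not pass. Without scaling these were Nr1i3 for PB in KO (-0.055) and for genotype averaged (-0.022), Nr1i2 for PB averaged (-0.087), the interaction of Ahr (0.35), Ncoa1 (-0.10) and Nr1h3 (-0.081) for genotype under DEN + PB, and Rxra (-0.10), Hnf4a (-0.074) and Nr1h3 (-0.044) for genotype averaged. With quantile scaling they were Nr1i3 (0.000887) and Nr5a2 (0.00479) for PB averaged, the interaction of Ahr (0.046) and Rxra for genotype (-0.017). With normexp they were Nr1i2 for PB averaged (-0.039), Ahr (0.11) and Nr3c1 (0.10) for genotype averaged, and with normexp without outlying backgrounds Nr1i2 for PB averaged (-0.000445) and the interaction of Ahr (0.011). With the mean over probes they were Rxra (0.00768) and Hnf4a (0.025) for PB averaged. With 1 array left out the averaged PB change ran from -0.057 to 0.035 for Nr1i3, from -0.057 to 0.083 for Nr1i2 and from -0.062 to 0.10 for Nr5a2, the interaction of Ahr from -0.22 to 0.067 and the averaged genotype difference of Rxra from -0.031 to 0.087.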
